A study of Homo sapiens with 5 samples.

Results

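The nuclear-encoded subunits of respiratory complexes III, IV, and V were examined in *MTSS1*-proficient and -deficient TF-1 cells. A gene was taken as a member if it was protein coding and its symbol began with UQCR, with COX followed by a digit from 4 to 8, or with ATP5. Pseudogenes and mitochondrially encoded genes were left out. The rule, which used no measured value, found 41 of the 27328 genes in the count table, namely 9 of complex III, 13 of complex IV, and 19 of complex V. It left out 58 other genes with matching symbols, nearly all of them pseudogenes, and it does not reach *CYC1* and *NDUFA4*, nuclear subunits of complexes III and IV whose names follow another pattern. *ATP5MF-PTCD1*, *COX4I2*, *COX6A2*, *COX7A1*, and *COX8C* have matching symbols and are protein coding but were absent from the count table.

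TF-1 is a human erythroleukemia line that carries the markers of an early myeloid cell. *MTSS1* encodes a scaffold protein that links the plasma membrane to the actin cytoskeleton. All cells had been transduced with a lentivirus that delivers *Cas9*, GFP, and an sgRNA. In the 2 control pools, sgCtrl pools 1 and 2, the sgRNA was directed against the *renilla luciferase* gene, which human cells lack. Each of the 3 knockout pools was made with its own *MTSS1* sgRNA (sgMTSS1_1, sgMTSS1_2, and sgMTSS1_3), and each pool, control or knockout, combined 4 single-cell clones. Loss of the protein had been checked by immunoblot. A further control pool and a pool made with sgMTSS1_4 were set aside by the authors as outliers and were not analysed here. The replicate is thus a pool of clones of 1 cell line, p-values measure the spread between such pools, and a difference between sgRNAs cannot be told apart from a difference between the clones picked.

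Complex III passes electrons from ubiquinol to cytochrome c, complex IV passes them on to oxygen, and both pump protons across the inner mitochondrial membrane. Complex V, the ATP synthase, lets the protons flow back through a rotating ring of c subunits and uses the rotation to make ATP in its F1 head, while a peripheral stalk holds the head still. Catalytic or membrane subunits, 1 of complex III, 3 of complex IV, and 2 of complex V, are made inside the mitochondrion from mitochondrial DNA. All the others are made from nuclear genes, whose mRNA levels are the subject here.

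Messenger RNA was measured by 3′-end sequencing, in which reads are made from the poly(A) end of each transcript, so that a long mRNA yields no more of them than a short one and counts were not divided by transcript length. Levels are given as CPM (read counts scaled to a common library total), with totals adjusted with trimmed mean of M values (TMM) factors. Totals were 2849979 and 3408827 counts in the control and 5442639 to 8854899 in the knockout pools, and 3 counts corresponded to 0.389 to 0.938 CPM. A gene was called if its adjusted p was under 0.05 and its log2-fold change, knockout over control, was above 1 or below −1, in the quasi-likelihood test of edgeR, adjusted by the Benjamini-Hochberg method over the 14391 genes that passed the filter on low counts. All adjusted p-values are from this test unless another is named. *MTSS1* itself lay at 204 and 87.9 CPM in sgCtrl pools 1 and 2 and at 104 CPM in sgMTSS1_1, 139 in sgMTSS1_2, and 49.9 in sgMTSS1_3. The groups overlapped (log2-fold change −0.58, SE 0.47, adjusted p = 0.494), and an edit by Cas9 need not lower the number of 3′ ends, so this value does not check the labels. All 12 markers of TF-1 cells passed the filter. The markers of T cells, monocytes, fibroblasts, and epithelial cells in the table lay at 0 to 4.52 CPM and did not pass it.

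Of the 41 members, 39 passed the filter. Their median log2-fold change was 0.51 and ranged from −0.67 to 3.85, against a median of −0.03 over all 14391 genes tested. The difference was positive in 30 of the 39 members and in 48.3% of all genes. In edgeR's quasi-likelihood test, 3 members were called higher in the knockout, 1 of complex IV (*COX6C*) and 2 of complex V (*ATP5MG* and *ATP5PO*), which is 7.69% of the members tested. The background was 4.17% of all genes called higher and 1.01% called lower. No member was called lower by edgeR, DESeq2, or limma-voom, and 0 had an unadjusted p under 0.05 in that direction, against 9.23% of all genes. An unadjusted p under 0.05 with a higher level in the knockout was seen in 16 members (41.0%), against 14.1% of all genes. In 17 members (43.6%) all knockout pools lay above both control pools, against 22.2% of all genes, and in 1 member they all lay below both, against 19.2%. In bulk RNA, more cells with a high level and more mRNA in every cell cannot be told apart.

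**Figure D1:**
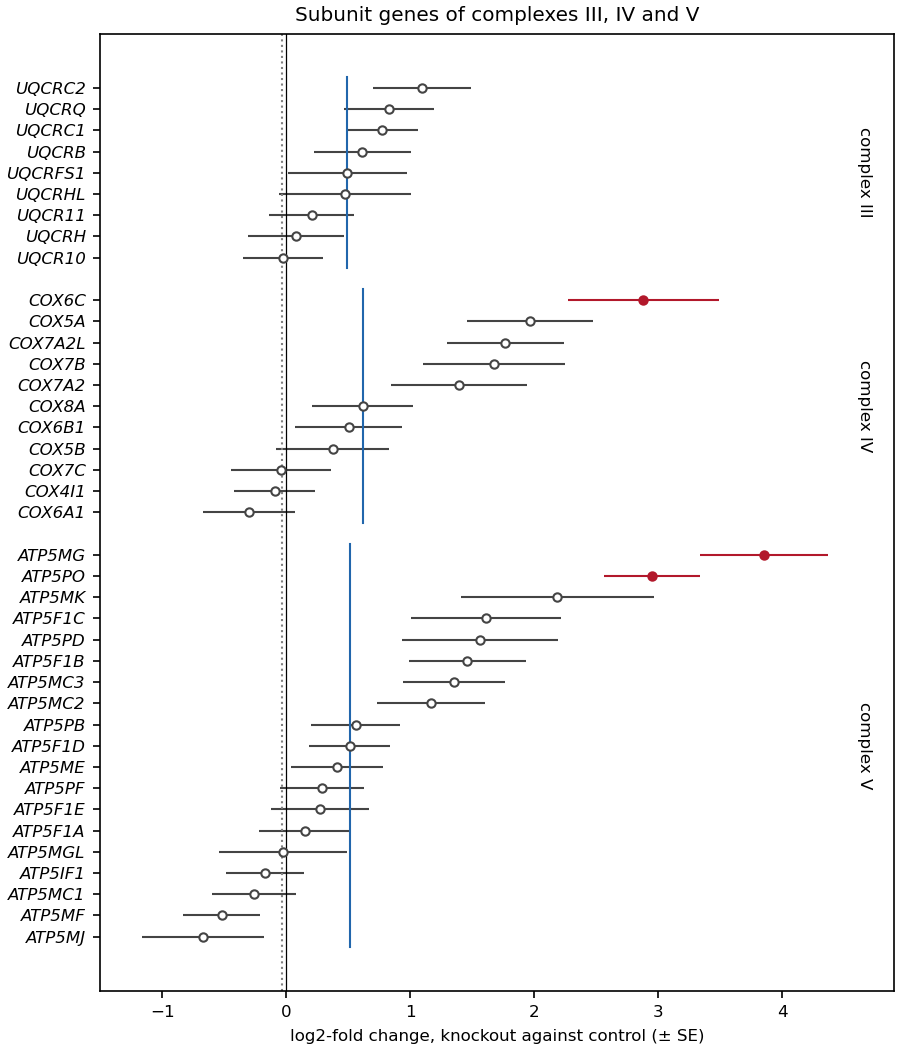
Log2-fold change, knockout over control, of the 39 tested members, grouped by complex, with bars of ± 1 SE. Filled red points are the 3 called members, the blue line marks the median of the complex (0.49, 0.62, and 0.51 for complexes III, IV, and V), and the dotted grey line marks the median of all tested genes (−0.03).

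The medians of the 3 complexes lay close together, at 0.49 for the 9 genes of complex III, 0.62 for the 11 tested of complex IV, and 0.51 for the 19 of complex V. When GC content and length were offset in the fit, the median was 0.51 for complex III, 0.28 for complex IV, and 0.60 for complex V. The ranges were less alike. Without offsets, complex III ranged from −0.03 to 1.09, complex IV from −0.30 to 2.88, and complex V from −0.67 to 3.85. The difference was positive in 8 of 9, 8 of 11, and 14 of 19 genes, and the knockout pools were all above the control pools in 4, 5, and 8 genes, respectively. No test of one complex against another was made, since genes of a complex are not replicates of a condition.

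The largest differences were in complex V. *ATP5MG* encodes subunit g, a small membrane subunit at the place where 2 synthases pair into dimers. Its level was 156 and 218 CPM in sgCtrl pools 1 and 2 and reached 4048 CPM in sgMTSS1_1, 1736 in sgMTSS1_2, and 2341 in sgMTSS1_3. From here on, values of control pools 1 and 2 and then of knockout pools 1 to 3 are given in this order. The lowest knockout pool was far above the higher control pool, and *ATP5MG* was called with a 14.5-fold higher level (log2-fold change 3.85, SE 0.51, adjusted p = 0.00799). *ATP5PO* encodes OSCP, the subunit that joins the peripheral stalk to the F1 head. Its level was 104 and 98.6 CPM in the control and 1009.5, 578, and 768 CPM in the knockout pools. The control pools nearly coincided, all knockout pools were several times higher, and *ATP5PO* was called with a 7.73-fold higher level (log2-fold change 2.95, SE 0.39, adjusted p = 0.00754). Both genes were called in all 17 settings of the test that were tried, including the omission of each pool in turn. *ATP5MG* lies on chromosome 11 (118401346 to 118433278, plus strand, GRCh38) and *ATP5PO* on chromosome 21 (33903453 to 33915814, minus strand). *ATP5MG* overlaps 2 genes without a symbol on each strand, and *ATP5PO* overlaps 1 such gene on its own strand and the noncoding gene *LINC00649* on the opposite one. How reads in shared positions were counted, and whether strand was used, is not given in the sources used here.

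Promoters of these genes are shown to set the most changed members beside their neighbors in the same complex that did not pass the test. The windows are from RefSeq on GRCh38.p14, run 5′ to 3′ on the gene's strand from 250 bases before to 50 bases after the annotated start, and carry in capitals any match, on either strand, to GCGCATG (the core of the NRF1 motif), CCGGAAG (that of GABP and other ETS factors), or AAGATGG (that of YY1). These are transcription factors known for their role in respiratory chain genes. No 2 matches overlapped in the windows printed. The window of *ATP5MG* is chr11:118401356-118401655 on the plus strand, that of *ATP5PO* is chr21:33915755-33916054 on the minus strand, that of *ATP5MC1* is chr17:48892537-48892836 on the plus strand, and that of *ATP5MC2*, 1 of 3 listed for this gene, is chr12:53676034-53676333 on the minus strand.
ATP5MG: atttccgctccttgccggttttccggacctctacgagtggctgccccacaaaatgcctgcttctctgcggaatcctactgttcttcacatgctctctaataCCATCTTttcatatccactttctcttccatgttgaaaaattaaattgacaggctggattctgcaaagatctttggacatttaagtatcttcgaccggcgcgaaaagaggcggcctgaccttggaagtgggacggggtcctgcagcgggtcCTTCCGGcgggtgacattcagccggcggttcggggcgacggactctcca
ATP5PO: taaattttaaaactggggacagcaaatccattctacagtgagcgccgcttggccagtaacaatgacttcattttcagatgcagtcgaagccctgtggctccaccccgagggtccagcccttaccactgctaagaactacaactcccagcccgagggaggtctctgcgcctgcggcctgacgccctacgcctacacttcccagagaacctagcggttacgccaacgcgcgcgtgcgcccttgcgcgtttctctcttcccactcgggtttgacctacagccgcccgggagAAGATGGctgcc
ATP5MC1: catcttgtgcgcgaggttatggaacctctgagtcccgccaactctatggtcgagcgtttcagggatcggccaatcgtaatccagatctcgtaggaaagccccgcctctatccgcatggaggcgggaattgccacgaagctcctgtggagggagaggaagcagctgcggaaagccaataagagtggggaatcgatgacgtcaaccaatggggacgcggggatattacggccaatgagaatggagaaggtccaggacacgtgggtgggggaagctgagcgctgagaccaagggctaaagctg
ATP5MC2: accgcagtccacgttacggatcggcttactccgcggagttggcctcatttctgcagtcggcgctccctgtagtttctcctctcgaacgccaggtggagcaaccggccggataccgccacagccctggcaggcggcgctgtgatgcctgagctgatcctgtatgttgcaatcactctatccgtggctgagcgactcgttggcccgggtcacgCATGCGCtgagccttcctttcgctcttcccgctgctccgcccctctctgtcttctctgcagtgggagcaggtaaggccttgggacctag
*ATP5MG* held CCATCTT and CTTCCGG, the reverse complements of the YY1 and GABP cores, *ATP5PO* held AAGATGG just after the start, *ATP5MC2* held CATGCGC, the reverse complement of the NRF1 core, and *ATP5MC1* held none. Windows were listed for 33 of the 41 members, 39 windows in all. Of these, 7 (17.9%) held the NRF1 core, 15 (38.5%) the GABP core, and 9 (23.1%) the YY1 core, against 4.43%, 10.3%, and 5.84% of all 35116 promoter windows. At least 1 core was in 23 of the 39 (59.0%) and in 18.6% of all windows. Among members whose knockout pools all lay above the control pools, 10 of 17 windows held a core (58.8%), against 13 of 20 (65.0%) among the other tested members. These are counts of windows and not of members, since *ATP5MC2* had 3 windows while *ATP5MC3* and *COX6C* had none. The GABP core was in 4 of these 17 (23.5%) and 11 of these 20 windows (55.0%), the NRF1 core in 3 (17.6%) and 4 (20.0%), and the YY1 core in 4 (23.5%) and 5 (25.0%). Matches describe the letters of these windows and not the binding of a factor.

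Complex V was then followed through its parts. In the F1 head and central stalk, which hold the catalytic sites, all 5 genes had a positive log2-fold change (median 0.51) and none was called. The catalytic β subunit gene *ATP5F1B* lay at 265 and 93.6 CPM in the control and at 649, 406, and 427 CPM in the knockout pools (log2-fold change 1.46, SE 0.47, adjusted p = 0.103). *ATP5F1C*, the γ subunit of the rotating shaft, lay at 56.9 and 20.9 against 215, 65.5, and 75.0 CPM (1.61, SE 0.60, adjusted p = 0.150). For both genes the knockout pools were above the control pools without overlap, but sgCtrl pool 1 was more than 2-fold above sgCtrl pool 2. *ATP5F1A*, the α subunit, *ATP5F1D*, and *ATP5F1E* had log2-fold changes of 0.15 to 0.51, and their groups overlapped. Members other than those chosen by the rule for named genes, such as these, are named after their values were seen.

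The 3 *ATP5MC* genes encode the same c subunit, with different targeting sequences that are removed on import. *ATP5MC1* lay at 388 and 562 CPM in the control and at 509, 325, and 355 CPM in the knockout pools, with overlapping groups (log2-fold change −0.26, SE 0.34, adjusted p = 0.693). *ATP5MC2* lay at 143 and 73.6 against 359, 161, and 211 CPM (1.17, SE 0.44, adjusted p = 0.148). *ATP5MC3* lay at 365 and 216 against 1042, 549.7, and 636 CPM (1.35, SE 0.41, adjusted p = 0.0885). For the latter genes the groups did not overlap, although neither was called. As a share of the counts of the 3 genes, *ATP5MC1* took 43.3% (95% Wilson interval 41.5 to 45.1) and 66.0% (64.2 to 67.7) in the control and 26.7% (26.0 to 27.4), 31.4% (30.2 to 32.6), and 29.5% (28.5 to 30.6) in the knockout pools. *ATP5MC3* took 40.7% and 25.4% against 54.5%, 53.1%, and 53.0%, and *ATP5MC2* 16.0% and 8.64% against 18.8%, 15.5%, and 17.5%. The largest contributor was thus *ATP5MC1* in both control pools and *ATP5MC3* in all knockout pools. In sgCtrl pool 1 the lead was small, since the interval of *ATP5MC3* (38.9 to 42.5) overlapped that of *ATP5MC1*. Intervals cover counting error only, since reads are not independent molecules. With 2 against 3 pools an exact permutation test has 10 arrangements and cannot pass 0.05, so shares and sums are given as values without a test.

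The peripheral stalk is built from 4 nuclear genes, all with positive differences (median 1.06), of which only *ATP5PO* was called. *ATP5PO* took 32.4% (Wilson interval 29.6 to 35.3) and 44.9% (41.4 to 48.5) of the counts of the stalk genes in the control and 75.1% (74.2 to 75.9), 75.8% (74.5 to 77.0), and 77.0% (75.9 to 78.1) in the knockout pools. *ATP5PD*, subunit d, lay at 29.1 and 10.7 against 109, 29.8, and 37.4 CPM (log2-fold change 1.56, SE 0.63, adjusted p = 0.172). Its lowest knockout pool was just above sgCtrl pool 1. *ATP5PB* and *ATP5PF*, subunits b and F6, had log2-fold changes of 0.56 and 0.29, with overlapping groups.

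Among the membrane accessory subunits, *ATP5MG* stood apart. *ATP5MK*, the small subunit also called DAPIT, lay at 42.2 and 4.47 CPM in the control and at 171, 58.7, and 88.4 CPM in the knockout pools (log2-fold change 2.19, SE 0.78, adjusted p = 0.132). Its control pools were 9.44-fold apart. *ATP5ME*, subunit e, which pairs with subunit g in the dimer interface, lay at 217 and 347 against 499, 270.4, and 356 CPM (0.41, SE 0.37, adjusted p = 0.549), so the groups overlapped. *ATP5MF*, subunit f, was the only member with all knockout pools below both control pools, at 213 and 129 against 128, 114, and 116 CPM (−0.52, SE 0.31, adjusted p = 0.344). The highest of the knockout pools was almost level with sgCtrl pool 2. *ATP5MJ*, a small proteolipid subunit, had the lowest log2-fold change (−0.67, SE 0.49, adjusted p = 0.453), which rested on 2569 CPM in sgCtrl pool 2, since sgCtrl pool 1 was at 779 and the knockout pools were at 1381, 852, and 926 CPM. Without sgCtrl pool 2, its log2-fold change was 0.43. *ATP5IF1*, the inhibitor that blocks ATP hydrolysis by the synthase, had a log2-fold change of −0.17, and the *ATP5MG* paralog *ATP5MGL*, at 2.50 to 3.87 CPM, one of −0.03.

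**Figure D2:**
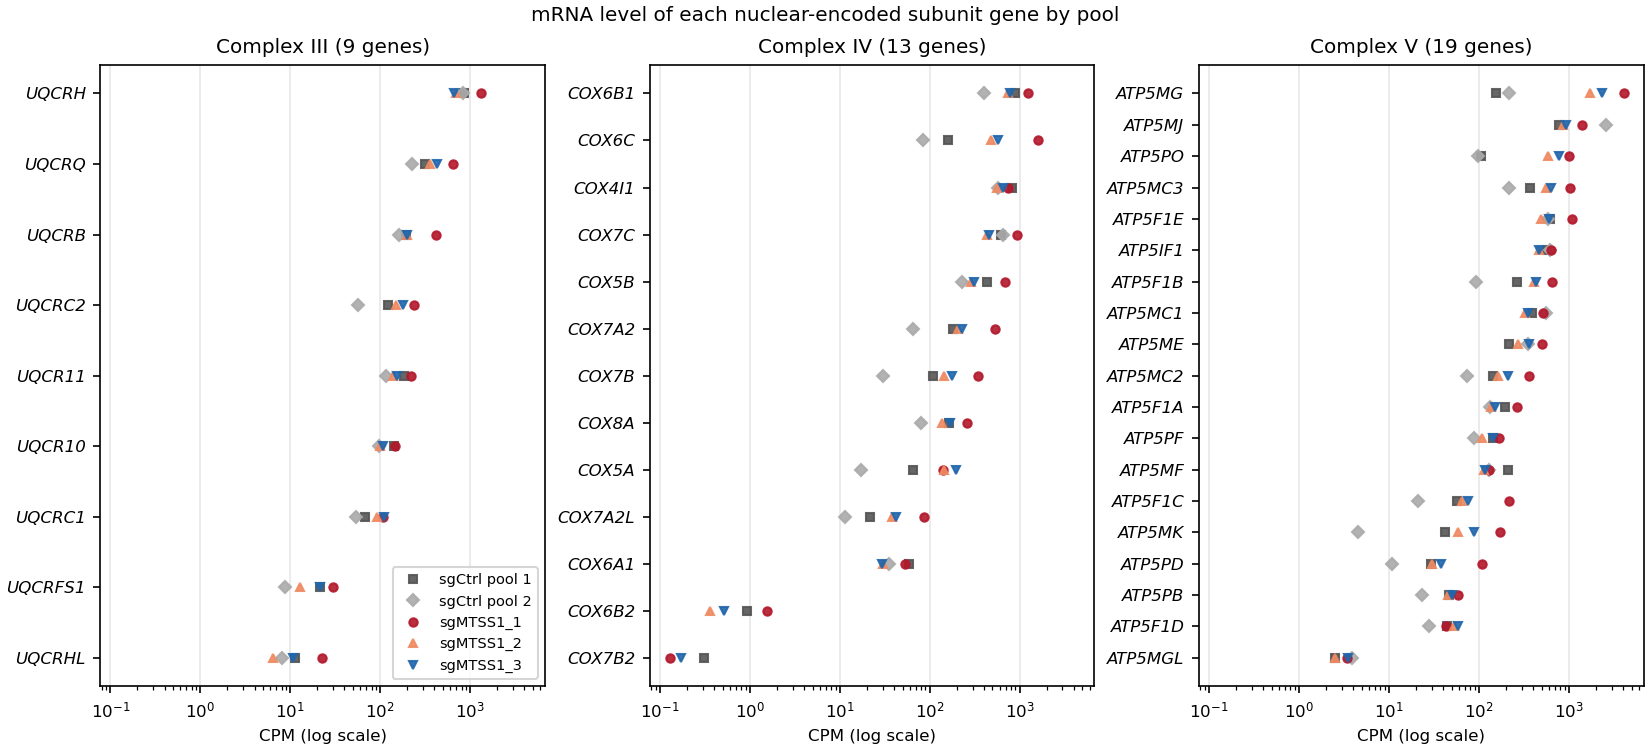
Level in CPM (log axis) of each member in every pool, 1 panel per complex, with a point for each of sgCtrl pools 1 and 2 and the 3 knockout pools. Pools without a count of a gene are not drawn, which applies to *COX6B2* and *COX7B2*, and the called *ATP5MG*, *ATP5PO*, and *COX6C* have their knockout points well apart from their control points.

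In complex IV, *COX6C* was called. It encodes a small single-helix subunit that sits beside the mitochondrially encoded MT-CO2. Its level was 159 and 83.4 CPM in sgCtrl pools 1 and 2 and reached 1616 CPM in sgMTSS1_1, 483 in sgMTSS1_2, and 571 in sgMTSS1_3. The sgMTSS1_1 pool was about as many times above the other knockout pools as these were above sgCtrl pool 1, and the fold change was 7.36 (log2-fold change 2.88, SE 0.61, adjusted p = 0.0305). *COX6C* lost its call in 3 of the 17 settings, with an adjusted p of 0.0776 without sgCtrl pool 2, 0.0644 without the sgMTSS1_1 pool, and 0.0531 without the sgMTSS1_3 pool. It overlaps *VPS13B* on the opposite strand, and 17 pseudogenes are named after it, of which 8 were in the table with 6.32% as many counts as *COX6C*. Its share of the counts of nuclear complex IV genes was 4.50% (Wilson interval 4.13 to 4.89) and 3.83% (3.41 to 4.29) in the control and 24.3% (24.0 to 24.7), 15.1% (14.6 to 15.6), and 15.7% (15.2 to 16.2) in the knockout pools.

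The other members of complex IV were not called. Of the subunits that join MT-CO1 early in assembly, *COX4I1*, the common form of subunit 4, lay at 821 and 579 against 741, 566, and 663 CPM with overlapping groups (log2-fold change −0.09, SE 0.33, adjusted p = 0.897). *COX5A*, its partner, lay at 64.7 and 17.3 against 141, 144, and 195 CPM (1.97, SE 0.51, adjusted p = 0.0561). All knockout pools were more than 2-fold above sgCtrl pool 1, and *COX5A* was called by DESeq2 (adjusted p = 0.00228) and limma-voom (adjusted p = 0.0360). Of the genes grouped with MT-CO2 in assembly, *COX7B* lay at 109 and 30.7 against 348, 143, and 177 CPM (1.68, SE 0.57, adjusted p = 0.118). *COX8A*, the widely expressed form of subunit 8, lay at 166 and 79.6 against 259, 137, and 169 CPM (0.62, SE 0.41, adjusted p = 0.405). The groups were apart for *COX7B* and overlapped for *COX8A*. *COX5B*, the zinc-binding subunit, and *COX7C* had log2-fold changes of 0.37 and −0.04.

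Of the genes grouped with MT-CO3 in assembly, *COX6A1*, the nonmuscle form of subunit 6A, lay at 58.5 and 35.2 CPM in the control and at 53.2, 30.5, and 29.9 CPM in the knockout pools (log2-fold change −0.30, SE 0.37, adjusted p = 0.674). *COX6B1*, which faces the intermembrane space, lay at 899 and 401 against 1237, 738, and 789.9 CPM (0.50, SE 0.43, adjusted p = 0.524). Both overlapped between groups. *COX7A2*, the widely expressed form of subunit 7A, lay at 181 and 64.7 against 531, 205, and 230.2 CPM (1.39, SE 0.55, adjusted p = 0.166), and its relative *COX7A2L*, known for its role in joining complex IV to complex III in supercomplexes, at 21.6 and 11.3 against 87.7, 38.1, and 41.9 CPM (1.77, SE 0.47, adjusted p = 0.0621). For both, every knockout pool was above both control pools. The tissue-restricted isoforms in the table did not pass the filter. *COX6B2* lay at 0.938 and 0 against 1.56, 0.361, and 0.522 CPM, and *COX7B2* at 0.313 and 0 against 0.130, 0, and 0.174 CPM. Apart from the sgMTSS1_1 pool, with 12 counts of *COX6B2*, no pool had more than 3 counts of either gene, so no fold change is given.

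Complex III had no called member. Its core subunits that line the matrix side, *UQCRC1* and *UQCRC2*, were both above the control in all knockout pools. *UQCRC2* had the largest log2-fold change of the complex, with 121 and 56.3 CPM in the control and 238, 149.7, and 181 CPM in the knockout pools (1.09, SE 0.39, adjusted p = 0.136). *UQCRC1* lay at 67.5 and 53.6 against 108, 92.1, and 110.3 CPM (0.77, SE 0.29, adjusted p = 0.151). *UQCRFS1*, the Rieske iron-sulfur protein, which hands electrons on, lay at 21.6 and 8.64 against 29.4, 12.8, and 21.2 CPM with overlapping groups (0.49, SE 0.48, adjusted p = 0.585). Among the small subunits, *UQCRQ* came second to *UQCRC2*, at 312 and 224 against 648, 358, and 422 CPM (0.83, SE 0.37, adjusted p = 0.210), without overlap. *UQCRB*, which takes part in the ubiquinone site, was also above the control in every knockout pool, but by little in sgMTSS1_2 and sgMTSS1_3 (194 and 159 against 411, 198, and 199 CPM, log2-fold change 0.61, adjusted p = 0.387). *UQCRH*, the acidic hinge protein, was at 844 and 831 against 1304, 689, and 663 CPM (0.08, SE 0.39, adjusted p = 0.925). The level of *UQCRHL*, an intronless copy of *UQCRH*, was 6.50 to 22.7 CPM, and reads of the pair could be split or lost, since reads that mapped to more than 1 place had been removed. *UQCR10* and *UQCR11* had log2-fold changes of −0.03 and 0.21.

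The members shared a pattern across pools that the grouping did not set. The level was higher in sgCtrl pool 1 than in sgCtrl pool 2 in 32 of the 39 tested members and in 55.4% of all genes, with a median ratio of 1.63 against 1.07. Among the knockout pools, sgMTSS1_1 was highest in 35 members, sgMTSS1_3 in 4, and sgMTSS1_2 in 0, whereas 38.2%, 29.1%, and 32.7% of all genes were highest in these pools. This trait was not particular to the members, since all tested complex I subunits except *NDUFB11* and *NDUFS7* were also highest in sgMTSS1_1. The median ratio of sgMTSS1_1 to the mean of the other knockout pools was 1.69 in the members and 0.980 over all genes. Both ratios within a group are larger than the fold to which the members' median log2-fold change of 0.51 corresponds. The cause was not tested. The 7 members with the higher level in sgCtrl pool 2 were *COX7C* and, in complex V, *ATP5MC1*, *ATP5ME*, *ATP5MG*, *ATP5MGL*, *ATP5MJ*, and *ATP5IF1*.

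**Figure D3:**
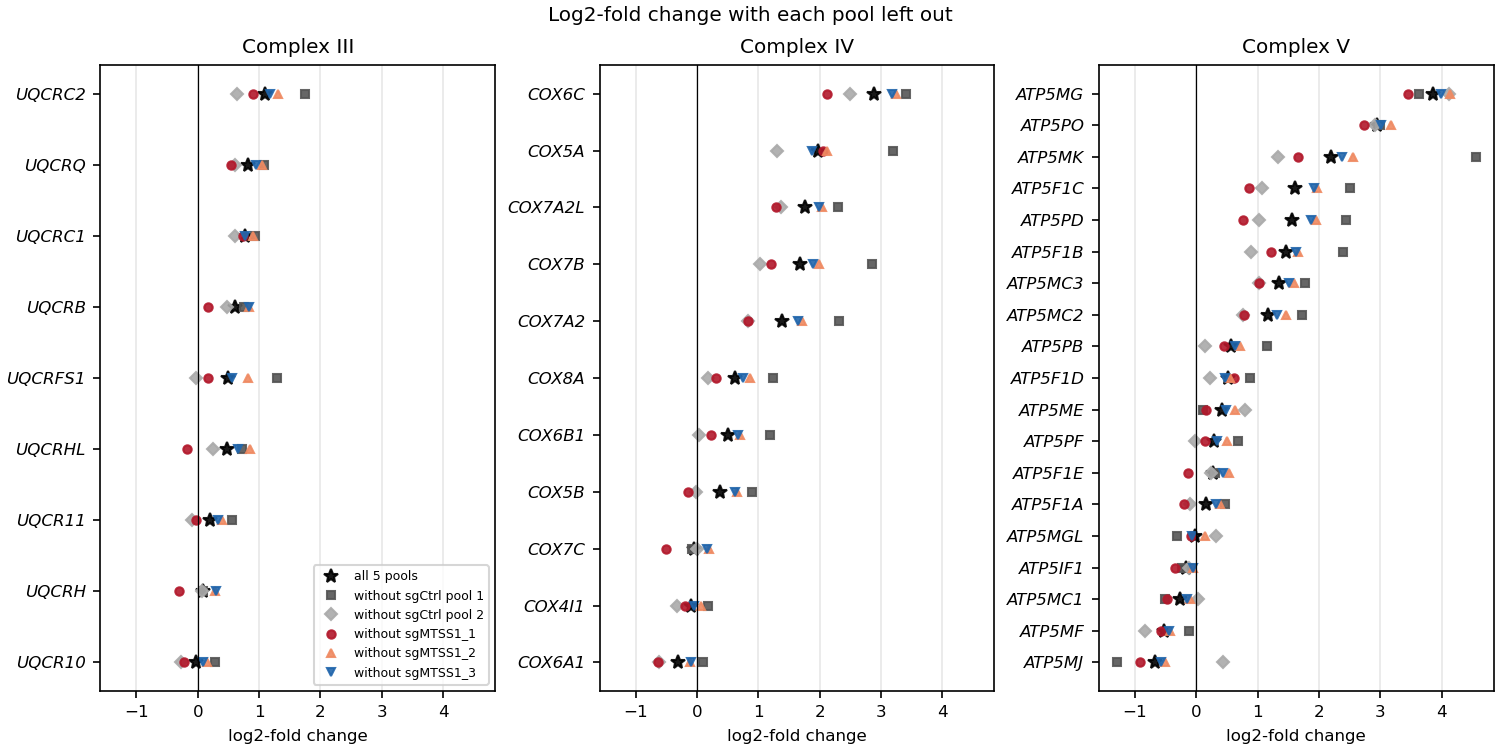
Log2-fold change (x axis) of each tested member, from all 5 pools (star) and with each pool left out in turn (other symbols), in 1 panel per complex. *ATP5MG* and *ATP5PO* stayed far from 0 in every case, while omission of sgCtrl pool 1 moved most genes of complexes III and IV upward and *ATP5MJ* changed sign without sgCtrl pool 2.

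Pools were therefore left out in turn. The number of members called higher was 11 without sgCtrl pool 1, 2 without sgCtrl pool 2, 2 without sgMTSS1_1, 3 without sgMTSS1_2, and 2 without sgMTSS1_3. The median log2-fold change ranged over these fits from 0.17 to 0.84 for complex III, from 0.18 to 1.24 for complex IV, and from 0.43 to 0.87 for complex V, and stayed above 0 in each. The number of all 14391 genes called higher moved as well, from 600 to 918 without sgCtrl pool 1, 528 without sgCtrl pool 2, 108 without sgMTSS1_1, 344 without sgMTSS1_2, and 182 without sgMTSS1_3. With DESeq2, 9 members were called higher, the 3 above and *COX5A*, *COX7A2L*, *COX7B*, *ATP5F1B*, *ATP5MC3*, and *ATP5MK*, against 7.52% of all genes with an adjusted p. With limma-voom there were 4, the 3 above and *COX5A*, against 3.54% of all genes.

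Levels were also summed over the genes of each complex. The sum for complex III was 1896 and 1554 against 3132, 1742, and 1869 CPM, with overlap between the groups. That for complex IV was 3527 and 2179 against 6642, 3206, and 3638 CPM, again with overlap, and that for complex V was 4375 and 5813 against 12364, 6451, and 7807 CPM, with all knockout pools above. The ratio of the means was 1.30, 1.58, and 1.74, respectively. Without *ATP5MG* and *ATP5PO*, the sum for complex V was 4114 and 5497 against 7306, 4137, and 4698 CPM, so that the groups overlapped and the ratio was 1.12. Much of the 5497 CPM of sgCtrl pool 2 was *ATP5MJ*, at 2569 CPM there against 779 in sgCtrl pool 1 and 1381, 852, and 926 in the knockout pools. This ratio thus leans on 1 gene in 1 control pool. The overlap does not, since without *ATP5MJ* the sum of sgMTSS1_2 is still slightly below that of sgCtrl pool 1. Without *COX6C*, the sum for complex IV was 3368 and 2096 against 5026, 2723, and 3068 CPM (ratio 1.32). *ATP5MG* alone took 3.57% (Wilson interval 3.28 to 3.89) and 3.75% (3.49 to 4.03) of the nuclear complex V counts in the control and 32.7% (32.4 to 33.0), 26.9% (26.4 to 27.4), and 30.0% (29.6 to 30.4) in the knockout pools.

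**Figure D4:**
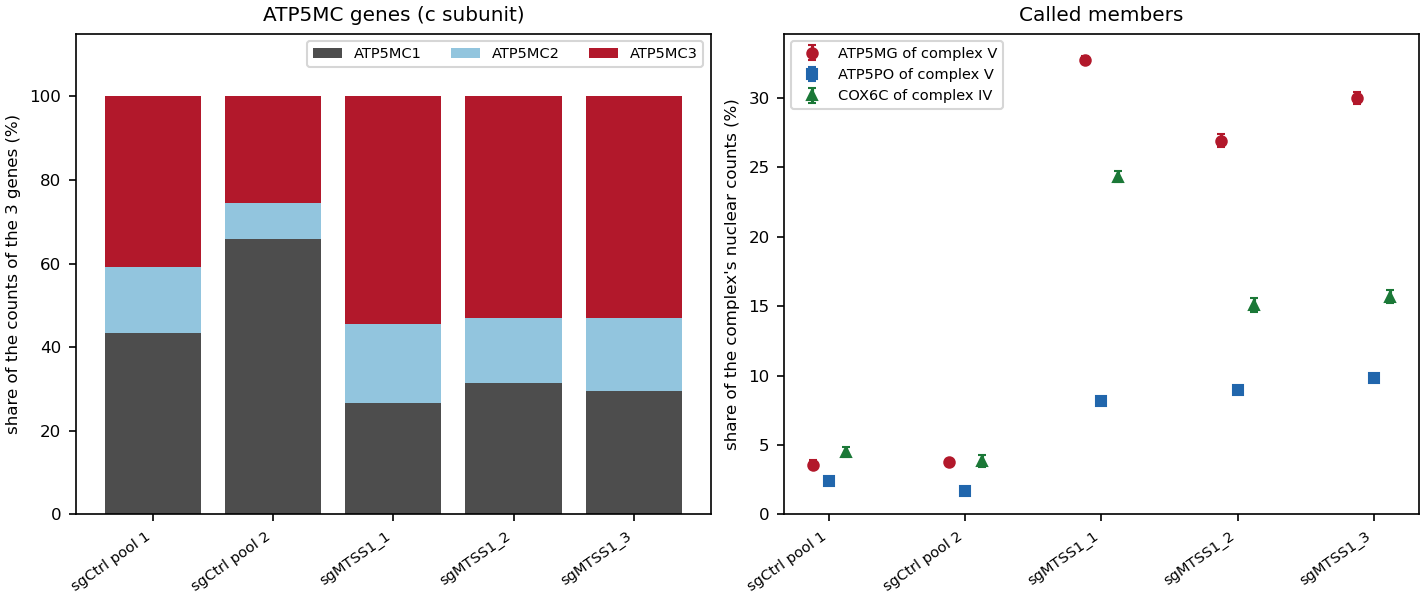
Left, share (%) of the counts of the 3 *ATP5MC* genes taken by each gene in every pool, as stacked bars. Right, share (%) of the nuclear counts of the complex taken by *ATP5MG*, *ATP5PO*, and *COX6C*, with 95% Wilson intervals, which for *ATP5MG* went from under 4% in both control pools to 26.9% or more in the knockout pools.

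None of the 6 mitochondrially encoded subunits of these complexes was called by edgeR, and their median log2-fold change was −0.17. *MT-CYB* of complex III (0.12, SE 0.42, adjusted p = 0.898), *MT-CO1* of complex IV (−0.03, SE 0.33, adjusted p = 0.974), and *MT-ATP6* of complex V (−0.31, SE 0.37, adjusted p = 0.664) overlapped between groups. *MT-CO2* lay at 1330.1 and 346 against 2558, 2606, and 3492 CPM (1.78, SE 0.56, adjusted p = 0.0967), and it was called higher in 4 of the 17 other settings, among them DESeq2 (adjusted p = 0.00710). *MT-CO3* lay at 23751 and 28432 against 14122, 14874, and 16178 CPM (−0.79, SE 0.43, adjusted p = 0.301), and *MT-ATP8* at 7001 and 6938 against 4011, 4803, and 2107 CPM (−0.94, SE 0.44, adjusted p = 0.234). *MT-CO2* was thus above, and *MT-CO3* and *MT-ATP8* below, both control pools in every knockout pool. The sums of the mitochondrially encoded genes were 25873 and 29332 against 17432, 18105, and 20276 CPM in complex IV and 10936 and 9618 against 6668, 7249, and 5025 CPM in complex V. Mitochondrial mRNAs carry short poly(A) tails, and oligo(dT) priming need not count them like nuclear mRNAs.

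**Figure D5:**
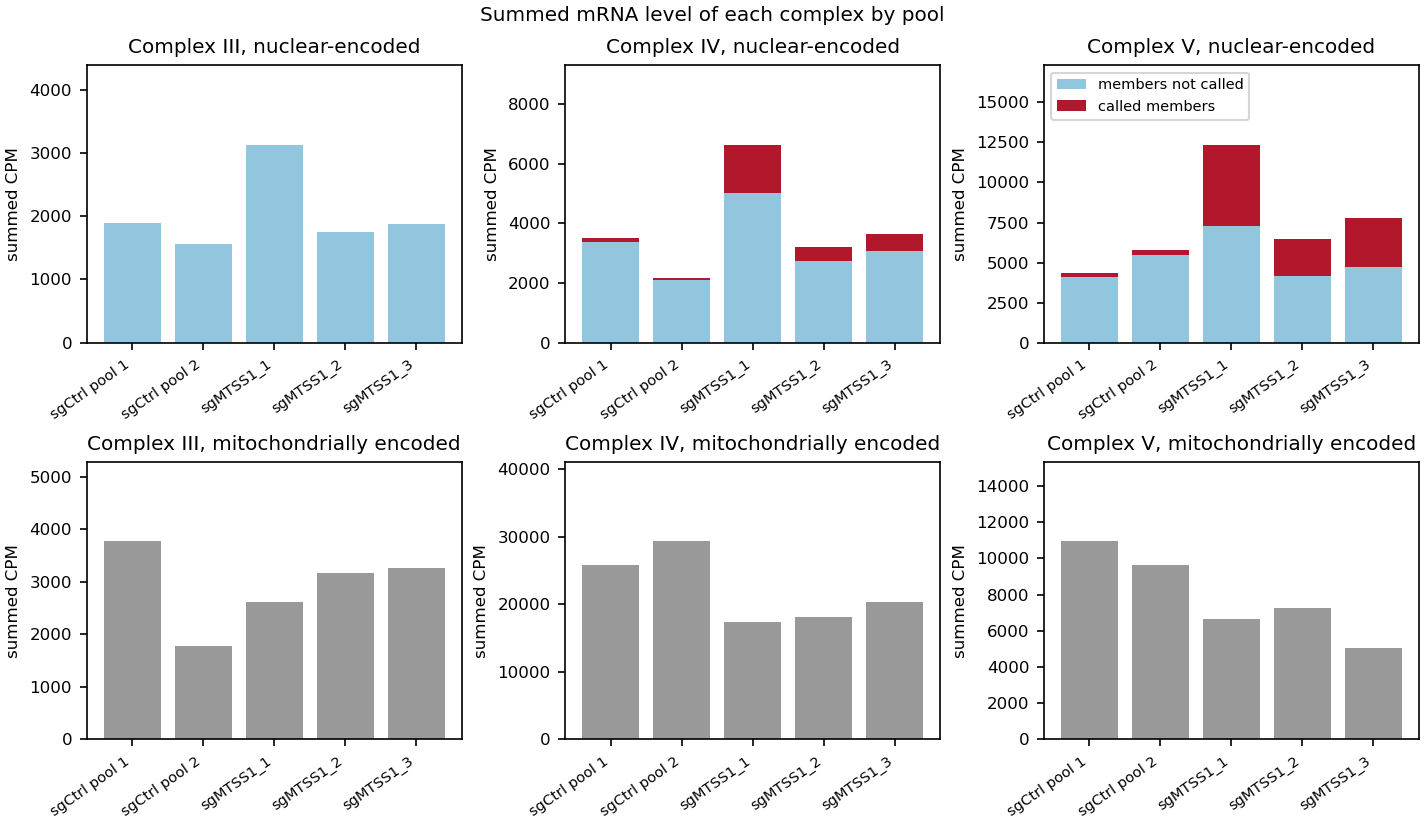
Summed level (CPM, bars from 0) in every pool of the nuclear (upper panels) and mitochondrially encoded (lower panels) genes of complexes III, IV, and V. Red marks the part taken by the called members, without which the complex V bars of the knockout pools (4137 to 7306 CPM) overlapped those of the control pools (4114 and 5497 CPM).

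The nuclear subunits that the naming rule does not reach and the factors that build the complexes were set beside the members. *CYC1*, cytochrome c1 of complex III, lay at 173 and 142 against 248, 209, and 246 CPM (0.57, SE 0.29, adjusted p = 0.277). *NDUFA4*, the last subunit to join complex IV, lay at 13.8 and 2.98 against 75.5, 19.5, and 27.5 CPM (2.29, SE 0.73, adjusted p = 0.0997). Neither overlapped between groups, and neither was called by edgeR. *NDUFA4* was called higher in 5 of the 17 other settings, among them DESeq2 (adjusted p = 0.0113), and *CYC1* in 0. With *CYC1*, 2 of 11 tested complex III assembly genes were called, both higher (median log2-fold change 0.33). They were *UQCC5* (2.84, SE 0.42, adjusted p = 0.0109) and *HCCS*, which attaches heme to c-type cytochromes (1.64, SE 0.37, adjusted p = 0.0359). With *NDUFA4*, 2 of 28 tested complex IV assembly and copper or heme delivery genes were called higher (median 0.11), *COX17*, the copper chaperone of the intermembrane space (3.07, SE 0.75, adjusted p = 0.0470), and *COX19* (1.39, SE 0.31, adjusted p = 0.0357). Of 6 complex V assembly factors, *FMC1* was called higher (3.46, SE 0.74, adjusted p = 0.0311), and the median was 0.28. No gene of these lists was called lower. Over all genes, 4.17% were called higher and 1.01% lower, and these shares also serve as background for the lists that follow.

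In complex II, *SDHA*, the flavoprotein that oxidizes succinate, was the only one of 4 subunits called, at 21.9 and 16.1 against 91.3, 88.6, and 103.3 CPM (log2-fold change 2.31, SE 0.32, adjusted p = 0.00976). Of 36 tested complex I subunits (median 0.50), *NDUFB7* (2.41, adjusted p = 0.0276) and *NDUFB8* (1.23, adjusted p = 0.0463) were called higher and *NDUFA13* lower (−2.30, adjusted p = 0.00705). Of 14 tested regulators of respiratory chain genes (median −0.36), 2 were called, both higher. These were *TFAM*, which packages mitochondrial DNA and starts its transcription, at 67.2 and 57.2 against 314, 189.9, and 166 CPM (1.84, SE 0.37, adjusted p = 0.0256), and *TFB1M*, a methyltransferase of mitochondrial ribosomal RNA (1.66, SE 0.38, adjusted p = 0.0394). *NRF1*, *GABPA*, and *YY1*, whose motif cores were searched above, had log2-fold changes of −0.02, −0.56, and −0.40 and were not called. None of the 9 tested genes of cytochrome c and the cristae (median −0.24) and none of the 4 adenine nucleotide and phosphate carriers (median 0.54) was called.

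Copies of the members bear on their counts. Pseudogenes are named after 27 of the members, 117 in all, of which 56 were in the table. Their summed level was 136 and 114 CPM in the control and 618, 212, and 252 CPM in the knockout pools, which corresponded to 1.39% and 1.20% of the members' counts, against 2.79%, 1.86%, and 1.89%. When pseudogene counts were added to those of their parent genes, the same number of members, 3, was called. *ATP5MG* and *ATP5PO* had few such counts, 0.184% as many as the gene itself for *ATP5MG* and none for *ATP5PO*. The share was largest for *UQCRFS1* (38.4%), *ATP5MK* (24.6%), and *ATP5F1E* (18.8%). Without *ATP5F1EP2*, the pseudogene with the highest level, the pseudogene sum was 59.4 and 25.9 against 386, 125, and 141 CPM (ratio of means 5.09). Of the members, 16 overlap a gene on the opposite strand and 13 a gene on the same strand, whose reads could not be told apart from those of the member if strand or shared positions were not used in counting. The tested members are short (median transcript length 763 bases against 2754 for all tested genes) and highly expressed (median 176 against 15.8 CPM). Across the 39 members, the log2-fold change had a Pearson r of −0.34 and a Spearman rho of −0.31 with GC content, and 0.14 and 0.30 with log2 transcript length, given as a description of genes measured in the same 5 pools. With offsets for GC content and length, 4 members were called, all higher, against 734 of all 14391 genes called higher (5.10%).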

How the data were processed

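RNA-seq was carried out on 5 pools of TF-1 clones with the QuantSeq 3′ FWD kit. According to the labels, the submitters' processing notes, and the study's methods, the authors trimmed the reads with BBDuk, checked them with FastQC 0.11.9, mapped them to GRCh38 with HISAT2 2.1.0, discarded multi-mapping reads with SAMtools 1.10, and deposited raw counts per Ensembl gene without normalization. The counting program, its annotation, and the handling of strand and PCR duplicates are not given in the sources used here. Groups and pool numbers were taken from the sample titles.

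From the deposited counts, edgeR 4.0.16 in R 4.3.3 gave the tests (filterByExpr with a minimum count of 10, TMM, glmQLFit, and glmQLFTest, condition as the only term, Benjamini-Hochberg adjustment over 14391 genes). SEs were derived from the log2-fold change and the F statistic. Gene names, types, and positions are from GENCODE 44, which names 27211 genes of the table, and promoters are from RefSeq. Alternatives were DESeq2 1.42.0, limma-voom (limma 3.58.1), other scalings and filters, thinned libraries, a block for the pool number, GC and length offsets (mgcv 1.9-3), added pseudogene counts, other thresholds, and omission of each pool. The calculation was tested on simulated data. Total counts of 2849979 to 8854899 per pool set the precision.

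Levels in every pool are given for called members, for the 2 members of each complex with the largest absolute log2-fold change, and for the *ATP5MC* genes and the *COX4*, *COX6A*, *COX6B*, *COX7A*, *COX7B*, and *COX8* isoforms. Of genes that are no members, *MTSS1*, *CYC1*, *NDUFA4*, the mitochondrially encoded subunits, and the called genes of the other lists are named. Further genes were named after their values were seen, as was the grouping by place in the complex or in its assembly. The members and gene lists were chosen with earlier results of these data known. A cell type marker of the lists is not reported here.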

Additional observations from a re-analysis of the deposited data

How the results depend on the processing

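The number of members called higher was 3 and became 9 with DESeq2, 12 without a filter on low counts, 12 with a block for the pool number, 10 with this replicate block and GC content and length offsets, and 2 to 11 when single pools were left out. The genes called higher over all those tested numbered 600 (4.17%) and became 1019 (7.52%), 1173 (4.29%), 894 (6.21%), and 851 (5.91%) in the first 4 of these settings. Without a filter, 27328 genes were tested, so the share hardly moved there. With 10 other settings the number of members was 2 to 4, and 0 members were called lower in any setting. Lower calls were also few over all genes, 145 of 14391 (1.01%) with edgeR and 338 of 13554 with DESeq2. The pool numbers pair no samples by the sources used, since only 2 of them occur in both groups. The summed log2 ratio of complex V went from 0.80 to 0.16 without the called members, an alternative chosen after seeing the data. The all-gene median shifted to −0.17 with library size alone, −0.11 with upper-quartile factors, and 0.11 without a filter.

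No log2-fold change of a called gene changed sign. Those that did were, with library size alone, *UQCRH* −0.088, *ATP5F1A* −0.032, and *MT-CYB* −0.043, with upper-quartile factors *UQCRH* −0.0031, and in thinned libraries *ATP5MGL* 0.014. Without a filter, they were *UQCR10* 0.12, *COX4I1* 0.054, *COX7C* 0.11, *ATP5MGL* 0.12, and *MT-CO1* 0.12. With at least 10 counts in every library, they were *UQCR10* 0.056, *COX7C* 0.028, and *MT-CO1* 0.055. With the replicate block, they were *UQCR10* 0.034, *COX7C* 0.020, and *MT-CO1* 0.050. With GC content and length offsets, they were *UQCR11* −0.0051, *UQCRH* −0.22, *UQCRHL* −0.20, *ATP5ME* −0.22, and *MT-CYB* −0.0087, and with the block added *UQCRH* −0.12, *UQCRHL* −0.24, *ATP5ME* −0.18, *ATP5PF* −0.019, and *MT-CYB* −0.062. The cause was not tested.

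With single pools left out, the log2-fold change ranged from −0.28 to 0.28 for *UQCR10*, −0.32 to 0.17 for *COX4I1*, −0.63 to 0.10 for *COX6A1*, −0.26 to 0.25 for *MT-CO1*, −1.07 to 0.14 for *MTSS1*, −0.085 to 0.57 for *UQCR11*, −0.022 to 1.29 for *UQCRFS1*, −0.14 to 0.89 for *COX5B*, −0.20 to 0.46 for *ATP5F1A*, −0.51 to 0.031 for *ATP5MC1*, −0.31 to 0.32 for *ATP5MGL*, −1.29 to 0.43 for *ATP5MJ*, −0.020 to 0.67 for *ATP5PF*, −0.32 to 0.75 for *MT-CYB*, −0.31 to 0.29 for *UQCRH*, −0.17 to 0.85 for *UQCRHL*, −0.13 to 0.53 for *ATP5F1E*, and −0.50 to 0.20 for *COX7C*. Comparisons of a value with its alternative were tallied over all genes named and counts by gene group, apart from the main results. Of these, 743 kept direction and side of the threshold, and 64 passed the threshold or rose as a count. A further 12 lost the threshold or dropped as a count, and 54 changed sign. For the main results, such as the members called and the complex medians, 122 stayed the same, 5 rose as a count, and 1 moved. With 2 control pools, omission of 1 leaves a single control, which is assumed to vary like the knockout pools.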
